A study of Mus musculus with 18 samples.

Results

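The insulin signalling core genes described here are Insr, Irs1, Irs2, Irs3, Pik3r1, Akt2, Tbc1d4, Foxo1 and Ptpn1, which together run from the insulin receptor to its intracellular targets. They were taken by symbol, and all 9 were found among the 45151 symbols that occur in every one of the 18 deposited expression profiles. The profiles came from RNA-seq of inguinal white fat (iWAT), epididymal white fat (eWAT) and brown fat (BAT) of wild type male C57BL/6J mice, 16 weeks old and kept on regular chow, with 6 samples per depot. The iWAT and eWAT samples were mature adipocytes that floated after collagenase digestion at 37 °C, whereas BAT was frozen in liquid nitrogen as whole tissue. Depot and preparation therefore cannot be told apart in a comparison with BAT. The labels name no other treatment, and title numbers were taken to be mouse numbers. For iWAT and BAT a value belongs to a gene with its exons merged, and for eWAT it belongs to a single transcript, here the transcript with the most reads. A difference between eWAT and another depot thus cannot be told apart from this difference between the files.

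Insulin binds a receptor tyrosine kinase at the cell surface, which phosphorylates adaptor proteins known as insulin receptor substrates. These recruit phosphoinositide 3-kinase, whose lipid product activates the kinase AKT. In fat cells AKT2 releases glucose transporter vesicles from a brake and keeps the transcription factor FOXO1 out of the nucleus, so that glucose uptake and lipid storage proceed. Tyrosine phosphatases such as the product of Ptpn1 remove phosphate from the receptor and so end the signal.

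The bases before the transcript starts of the substrate genes and of Pik3r1 are shown because Irs2 and Pik3r1 had the largest differences between depots among the 9 genes, and Irs1 and Irs3 encode proteins of the same family as Irs2. Each is the 250 bases before a start in the RefSeq promoter table of build GRCm38.p6, a later build than that of the files, written 5′ to 3′ on the strand of the gene. Capitals mark the E-box CACGTG and the GC box GGGCGG, searched on both strands. Pik3r1 is given at its upstream start and at its internal start.
Irs1, chr1:82291440-82291689, minus strand: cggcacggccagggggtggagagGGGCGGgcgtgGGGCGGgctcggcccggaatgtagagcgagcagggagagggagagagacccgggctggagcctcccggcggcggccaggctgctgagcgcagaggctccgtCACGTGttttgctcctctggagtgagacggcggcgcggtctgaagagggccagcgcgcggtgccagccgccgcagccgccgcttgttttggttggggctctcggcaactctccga
Irs2, chr8:11008930-11009179, minus strand: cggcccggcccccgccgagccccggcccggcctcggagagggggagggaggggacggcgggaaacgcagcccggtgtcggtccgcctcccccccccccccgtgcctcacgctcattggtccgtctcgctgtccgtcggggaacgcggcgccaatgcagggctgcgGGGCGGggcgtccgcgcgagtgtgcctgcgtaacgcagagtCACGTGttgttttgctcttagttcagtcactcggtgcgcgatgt
Irs3, chr5:137645715-137645964, minus strand: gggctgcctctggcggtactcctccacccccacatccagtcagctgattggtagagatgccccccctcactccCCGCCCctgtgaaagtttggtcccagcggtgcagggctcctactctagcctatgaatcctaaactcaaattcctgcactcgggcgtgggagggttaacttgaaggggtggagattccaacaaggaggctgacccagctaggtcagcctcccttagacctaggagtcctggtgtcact
Pik3r1, upstream start, chr13:101768218-101768467, minus strand: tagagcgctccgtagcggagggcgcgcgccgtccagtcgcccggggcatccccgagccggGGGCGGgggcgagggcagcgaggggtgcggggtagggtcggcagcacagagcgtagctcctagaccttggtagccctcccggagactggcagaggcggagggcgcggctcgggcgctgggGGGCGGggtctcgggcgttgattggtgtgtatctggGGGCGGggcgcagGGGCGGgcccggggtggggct
Pik3r1, internal start, chr13:101692631-101692880, minus strand: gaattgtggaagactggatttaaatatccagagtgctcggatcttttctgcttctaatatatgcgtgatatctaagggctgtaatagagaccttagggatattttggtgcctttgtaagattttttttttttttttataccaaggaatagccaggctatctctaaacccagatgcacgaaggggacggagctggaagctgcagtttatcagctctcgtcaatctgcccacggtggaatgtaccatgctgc

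An E-box began at base -44 before the start of Irs2 and at base -115 before that of Irs1, counted from the transcript start, and neither the Irs3 window nor the Pik3r1 windows held one. E-boxes were found in 7.17% of all 32544 RefSeq windows of 300 bases (250 before and 50 after a start). GC boxes, present in 35.9% of all windows, occurred 2 times before Irs1, 1 time before Irs2, 1 time before Irs3 and 4 times before the upstream start of Pik3r1. The internal Pik3r1 window held 0 GC boxes and had a GC content of 43.7%, below the median of 53.0% over all windows, whereas the upstream window reached 75.7%. The short cAMP response motif TGACG, found in 20.9% of windows on either strand, began at base -118 of Irs1, where it overlapped the E-box, and at base -35 of the internal Pik3r1 start. Neither the FoxO site GTAAACA nor the full cAMP response element TGACGTCA occurred in the windows of the 8 core genes that the table holds, against 3.66% and 1.80% of all windows. These matches describe letters only, and no binding was measured. Insr was not among the windows used here.

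The totals of reads on which the RPKM values rest (reads per kilobase of row length, scaled to the total of reads) were 22929576 to 34512470 per sample. Pearson correlations of samples within a depot were 0.929 to 0.985. The mean RPKM of Ucp1, which encodes the uncoupling protein of brown fat, was 2.82 ± 1.92 in iWAT and 0.327 ± 0.166 in eWAT against 1219 ± 189.5 in BAT (SD, n = 6 each). Adipoq, the adiponectin gene of fat cells, was at 1854 ± 237, 1789 ± 508 and 302 ± 47.7 RPKM in iWAT, eWAT and BAT. Some samples stood apart in marker genes of other cells. The summed RPKM of 6 macrophage genes was 1952 in the eWAT sample of mouse 15 and at most 463 in the other eWAT samples, and that of 6 skeletal muscle genes was 1500 in the BAT sample of mouse 12 and at most 132 in the other BAT samples. Of 5 endothelial genes the sum in iWAT was highest, at 145, in the sample of mouse 14, and was at most 73.4 in the other iWAT samples. The depots differed in such sums as well. Median macrophage sums were 238 in eWAT, 37.8 in iWAT and 32.7 in BAT, and endothelial ones 95.7, 45.1 and 62.5. In the same order, those of 4 mesothelial genes were 20.2, 4.10 and 13.1. The part of these cells in differences from eWAT was not tested. The epididymis sum was 61.8 and 60.2 in the eWAT samples with the highest values, against a median of 1.82. The sum of 6 immediate-early response genes separated the preparations, at 2019 to 3070 in iWAT, 1571 to 2242 in eWAT and 16.4 to 60.2 in BAT, and this gap moved with every difference between a white depot and BAT given below. Its part in those differences was not tested. In bulk RNA, fewer cells of a type and less RNA per cell cannot be told apart.

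The core genes differed most in Irs2, whose mean RPKM was 25.0-fold higher in iWAT and 9.82-fold higher in eWAT than in BAT. Pik3r1 and Ptpn1 were also higher in both white depots, and Insr was higher in iWAT. Between iWAT and BAT, 4 of the 9 genes passed the test (edgeR quasi-likelihood, Benjamini-Hochberg adjusted p under 0.05), and all 4 were higher in iWAT, while 67.6% of the 19733 gene rows tested passed and 34.0% passed as higher in iWAT. The share of core genes that passed was thus below the background. Between eWAT and BAT, 4 of 9 passed, against 70.3% of 18383 symbols, with 3 higher and 1 lower in eWAT (35.6% and 34.7% of all symbols). Between iWAT and eWAT 3 of 9 passed, against 25.6%, and all 3 were higher in iWAT, as were 13.4% of all symbols. The gene lower in eWAT than in BAT was Akt2, which was also among the 3 higher in iWAT than in eWAT. Its mean RPKM differed in the other direction, at 21.5, 33.6 and 19.5 in iWAT, eWAT and BAT. All 9 genes had passed the filter on low counts in each fit. The median log2 fold change of the core genes was 0.53 for iWAT over BAT, 0.20 for eWAT over BAT and 0.28 for iWAT over eWAT, beside 0.01, 0.03 and 0.00 over all rows tested. The median size of the change, without sign, was 0.53, 0.51 and 0.28 for the core genes and 0.61, 0.75 and 0.27 for all rows. The comparisons share samples and are not independent of each other. The normalisation of the counts (TMM) set log2 differences of iWAT over BAT 0.27 lower and those of eWAT over BAT 0.33 lower than the RPKM values do, and that of iWAT over eWAT 0.01 higher, so a small difference in RPKM with BAT can be near 0 in the test. With limma on log2(RPKM + 0.1), which differs in model, in normalisation and in its use of row length, 7, 8 and 5 of the 9 genes passed, while the share of all rows that passed was 70.7%, 80.4% and 52.5%. In that fit 46% of rows were higher and 24.6% lower in iWAT than in BAT, 62.6% were higher and 17.8% lower in eWAT than in BAT, and 5.37% were higher and 47.1% lower in iWAT than in eWAT. The genes that passed with limma and not in the edgeR test above were Irs1, Irs3 and Foxo1 for iWAT over BAT (0.85, 0.59 and 0.77), Insr, Irs3, Tbc1d4 and Foxo1 for eWAT over BAT (0.54, 0.78, 1.10 and 1.23), and Tbc1d4 and Ptpn1 for iWAT over eWAT (-0.89 and -0.53).

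**Figure D1:**
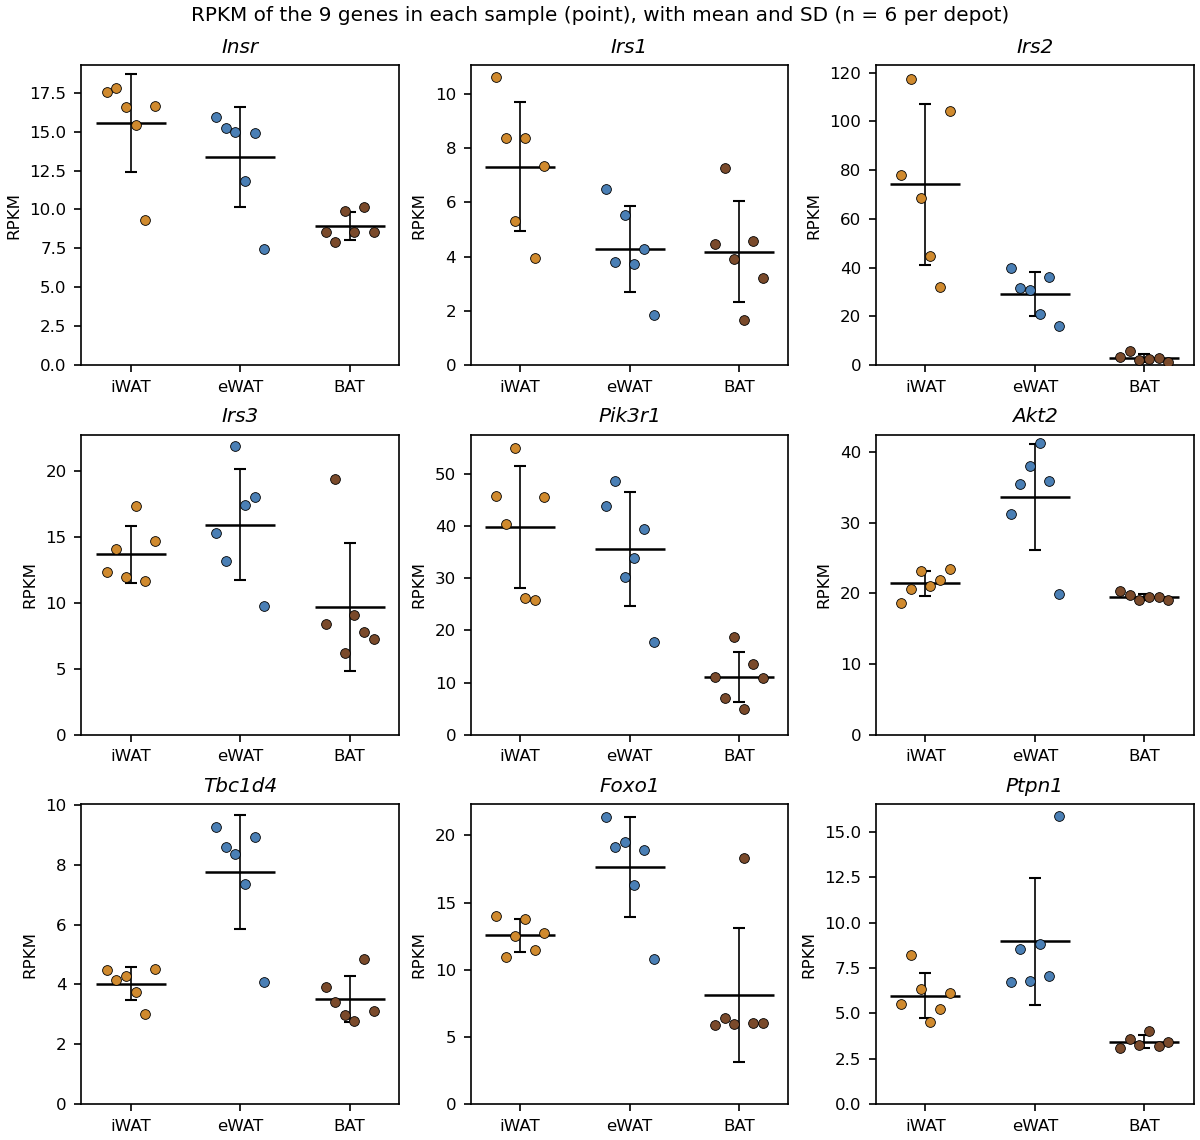
RPKM of the 9 core genes (vertical axis, from 0) in each of the 18 samples (points, in order of title number within a depot), with the mean (long line) and SD (bar) of 6 samples per depot. The iWAT and eWAT points of Irs2 lie above all BAT points, at 15.9 or more against 5.70 or less, and the eWAT sample of mouse 15 (right-most eWAT point) is lowest for 8 of the 9 genes and highest for Ptpn1.

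Insr encodes the insulin receptor (mm9 chromosome 8, 3150922 to 3279617, minus strand, 22 merged exons). Over the 6 samples of a depot its RPKM ran from 9.34 to 17.8 in iWAT (median 16.6), from 7.49 to 15.9 in eWAT (median 14.9) and from 7.92 to 10.2 in BAT (median 8.56). In iWAT 5 of 6 samples and in eWAT 5 of 6 samples were above all BAT samples, and in both depots a single low sample, of mouse 14 in iWAT and of mouse 15 in eWAT, fell within or below the BAT range. The counts were higher in iWAT than in BAT by 0.53 (SE 0.15) on the log2 scale, a 1.44-fold difference (edgeR adjusted p = 0.00537). For eWAT over BAT the log2 fold change was 0.20 (SE 0.17, edgeR adjusted p = 0.308), and for iWAT over eWAT it was 0.28 (SE 0.17, edgeR adjusted p = 0.245). With limma on log2(RPKM + 0.1) the former was 0.54 and passed (limma adjusted p = 0.00840). With an offset for row length the latter was 0.65 and passed (edgeR adjusted p = 0.00427). That fit also took the TMM factors again on length-scaled counts, so it differs in normalisation too. The Insr rows are close in length, at 9355 bases in eWAT and 9682 merged. In the same fit Irs3, with the same row in both kinds of file, moved from -0.20 to 0.21 for iWAT over eWAT. Igf1r, the related receptor for insulin-like growth factor, was far below Insr in each depot, at mean RPKM of 0.558 ± 0.110, 0.986 ± 0.271 and 0.637 ± 0.131 in iWAT, eWAT and BAT, respectively (SD, n = 6 each). The log2 ratio of Insr over Igf1r RPKM was 0.96 higher in iWAT than in BAT and 1.04 higher in iWAT than in eWAT (exact two-sided permutation tests, n = 6 and 6, p = 0.00866 each, adjusted over 15 ratio comparisons 0.0260). The call against BAT was lost (adjusted p = 0.0519) without the BAT sample of mouse 13, at 0.93, and the call against eWAT without the eWAT sample of mouse 8, 13 or 15, at 0.95, 1.02 and 0.89, or with read counts in place of RPKM, at 0.55.

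Of the insulin receptor substrates, Irs2 (mm9 chromosome 8, 10986961 to 11008458, minus strand) encodes a broadly used substrate that is central in liver and in pancreatic beta cells. The iWAT samples lay between 32.1 and 117 RPKM with a median of 73.3, the eWAT samples between 15.9 and 39.7 with a median of 31.2, and the BAT samples between 1.44 and 5.70 with a median of 2.70. The lowest sample of either white depot was above the highest BAT sample, and iWAT and eWAT overlapped, with 5 of 6 iWAT samples above all eWAT samples. Irs2 counts in iWAT were 20.8-fold those in BAT (4.38 on the log2 scale, SE 0.39, edgeR adjusted p = 2.43e-07), and 2.39% of all rows had a larger change without sign. In eWAT they were 7.76-fold those in BAT (2.96 on the log2 scale, SE 0.36, edgeR adjusted p = 6.90e-07). Between the white depots they were 2.59-fold higher in iWAT (1.37 on the log2 scale, SE 0.34, edgeR adjusted p = 0.00579). Without the BAT sample of mouse 12 and the eWAT sample of mouse 15 the log2 fold changes were 4.36, 3.06 and 1.25, and all were past the threshold.

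Irs1 (mm9 chromosome 1, 82229676 to 82288014, minus strand) encodes the substrate best known from muscle and fat cells. Values of 3.93 to 10.6 RPKM (median 7.86) were measured for iWAT, 1.86 to 6.50 (median 4.03) for eWAT and 1.66 to 7.28 (median 4.20) for BAT. All 3 depots overlapped, and 4 of 6 iWAT samples were above all samples of either other depot. Counts were higher in iWAT than in eWAT by 0.99 (SE 0.33) on the log2 scale (edgeR adjusted p = 0.0317). This call was lost in 7 of the 18 fits that left out 1 sample, with adjusted p up to 0.0780. The libraries were the iWAT samples of mice 7, 11 and 13 (0.84, 0.95 and 0.96) and the eWAT samples of mice 8, 13, 14 and 15 (0.95, 0.95, 0.99 and 0.84). The log2 fold change was 0.54 for iWAT over BAT (SE 0.31, edgeR adjusted p = 0.140) and -0.51 for eWAT over BAT (SE 0.32, edgeR adjusted p = 0.168). Without the BAT sample of mouse 11, which had the lowest Irs1 value in BAT, the latter was -0.71 and passed (edgeR adjusted p = 0.0401). A further row of the annotation, on the opposite strand and within the last exon of Irs1, held 9697 reads in the iWAT and BAT samples, 47.3% of the number counted for Irs1. No source used here states that the counting used strand, so reads of Irs1 and of an antisense RNA cannot be told apart there.

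Irs3 (mm9 chromosome 5, 138084260 to 138086942, minus strand) encodes a substrate that is abundant in rodent fat and has no functional human counterpart. It is the only core gene with the same row in both kinds of file. Over the 6 samples of a depot its RPKM ran from 11.7 to 17.4 in iWAT (median 13.2), from 9.79 to 21.9 in eWAT (median 16.4) and from 6.23 to 19.4 in BAT (median 8.10). The BAT sample of mouse 7 had the value of 19.4, and the other 5 BAT samples were at 9.10 or less, below all samples of iWAT and eWAT. None of the 3 comparisons passed, with a log2 fold change of 0.24 for iWAT over BAT (SE 0.23, edgeR adjusted p = 0.363) and 0.39 for eWAT over BAT (SE 0.23, edgeR adjusted p = 0.135). Without that BAT sample both passed, at 0.52 (edgeR adjusted p = 0.00181) and 0.69 (edgeR adjusted p = 0.00113). For iWAT over eWAT the log2 fold change was -0.20 (SE 0.23, edgeR adjusted p = 0.555).

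Expressed as a share of the summed RPKM of the 3 substrate genes, Irs2 made up 75.8 ± 8.40%, 58.6 ± 6.32% and 17.4 ± 2.86% in iWAT, eWAT and BAT, respectively (SD, n = 6 each). In the same order Irs3 made up 16.2 ± 6.60%, 32.9 ± 6.37% and 57.3 ± 7.43%, and Irs1 8.10 ± 2.58%, 8.47 ± 1.43% and 25.3 ± 6.94%. Irs2 was the largest of the 3 in all 12 white samples and Irs3 in all 6 BAT samples. The sum itself was 95.2 ± 34.5, 49.4 ± 12.9 and 16.9 ± 7.80 RPKM. The log2 ratio of Irs2 over Irs1 was 3.78 higher in iWAT and 3.30 higher in eWAT than in BAT (exact two-sided permutation tests, n = 6 and 6, p = 0.00216, the smallest these can give, adjusted p = 0.0162). It was 0.48 higher in iWAT than in eWAT, which did not pass (exact permutation p = 0.123, adjusted p = 0.185). The log2 ratio of Irs3 over Irs1 was 0.99 lower in iWAT than in eWAT, from 0.96 ± 0.45 and 1.95 ± 0.41 (SD; exact permutation p = 0.00433, adjusted p = 0.0216). For Irs3 over Irs1 the difference from BAT was -0.27 in iWAT (exact permutation p = 0.455, adjusted p = 0.568) and 0.72 in eWAT (exact permutation p = 0.0541, adjusted p = 0.101). Without the BAT sample of mouse 11 the latter was 0.96 (exact permutation, adjusted p = 0.0260).

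**Figure D2:**
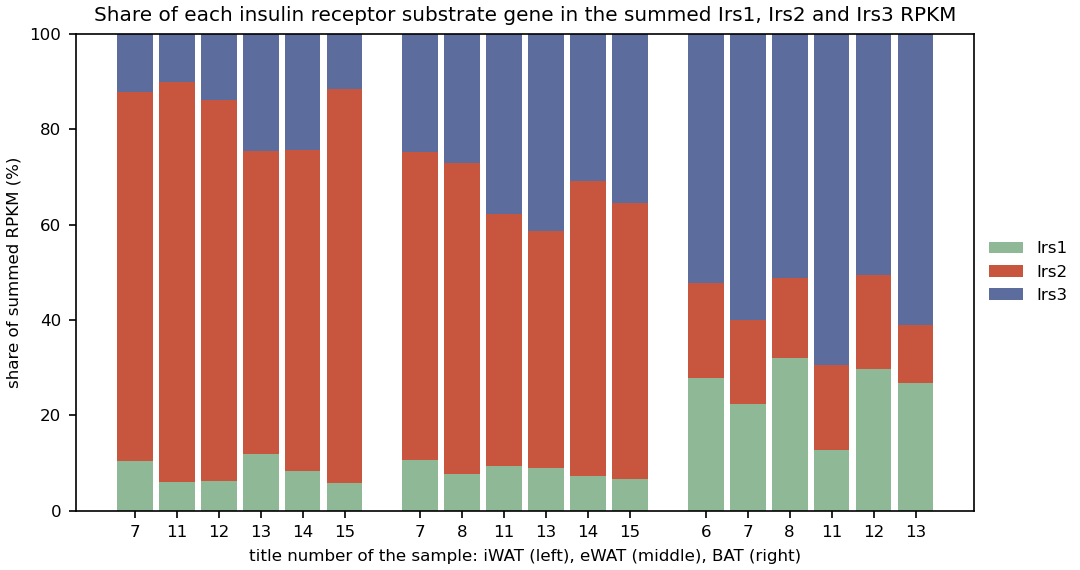
Share of Irs1, Irs2 and Irs3 in their summed RPKM (vertical axis, in percent, bars stacked to 100) in each sample (horizontal axis, title numbers, iWAT left, eWAT middle, BAT right). Irs2 takes 49.8% or more of every white sample and 20.0% or less of every BAT sample.

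Pik3r1 (mm9 chromosome 13, 102450716 to 102538172, minus strand, 18 merged exons) encodes the regulatory subunits of phosphoinositide 3-kinase that bind the phosphorylated substrates, in long and short forms. The iWAT samples lay between 25.9 and 55.0 RPKM with a median of 43.1, the eWAT samples between 17.8 and 48.8 with a median of 36.6, and the BAT samples between 4.99 and 18.7 with a median of 11.002. All iWAT samples were above all BAT samples, and in eWAT only the sample of mouse 15 fell within the BAT range. Counts in iWAT were 2.93-fold those in BAT (1.55 on the log2 scale, SE 0.31, edgeR adjusted p = 0.000463), and counts in eWAT were 1.90-fold those in BAT (0.93 on the log2 scale, SE 0.30, edgeR adjusted p = 0.0104). In mean RPKM the latter difference was 3.22-fold. The eWAT row has 6915 bases and the merged row 9151. With an offset for row length the log2 fold change of eWAT over BAT was 0.93, but that fit also took the TMM factors again. It therefore does not give the effect of row length alone. With limma on log2(RPKM + 0.1) the log2 fold change was 1.73 (limma adjusted p = 2.34e-05). Between iWAT and eWAT the log2 fold change was 0.58 (SE 0.30, edgeR adjusted p = 0.168).

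Akt2 (mm9 chromosome 7, 28376571 to 28425856, plus strand, 23 merged exons) encodes the AKT kinase that dominates in insulin-responsive tissue. Values of 18.7 to 23.4 RPKM (median 21.5) were measured for iWAT, 19.9 to 41.3 (median 35.7) for eWAT and 19.0 to 20.3 (median 19.5) for BAT. The BAT samples spread least, 5 of 6 iWAT samples were above them, and 5 of 6 eWAT samples were above all others. For iWAT over BAT the log2 fold change was -0.13 (SE 0.07, edgeR adjusted p = 0.108), and it was -0.19 without the BAT sample of mouse 11, which passed (edgeR adjusted p = 0.0277). It also passed, at -0.20, among rows with a mean RPKM of at least 1 (edgeR adjusted p = 0.0117). The direction against eWAT depended on the scale. Read counts in eWAT were below those in BAT (log2 fold change -0.80, SE 0.12, edgeR adjusted p = 7.15e-06) and below those in iWAT (log2 fold change of iWAT over eWAT 0.62, SE 0.12, edgeR adjusted p = 0.000890). The eWAT row had 3122 bases and the merged row 7428, and with an offset for row length the log2 fold changes were 0.052 for eWAT over BAT and -0.21 for iWAT over eWAT, which did not pass (edgeR adjusted p = 0.713 and 0.155). That fit also took the TMM factors again, so it does not give the effect of row length alone. With limma on log2(RPKM + 0.1) these log2 fold changes were 0.75 (limma adjusted p = 2.71e-05) and -0.61 (limma adjusted p = 0.000441). Akt1, the widely expressed AKT kinase, was at mean RPKM of 8.46 ± 1.14, 16.6 ± 4.83 and 9.43 ± 2.09 in iWAT, eWAT and BAT, respectively (SD, n = 6 each). The log2 ratio of Akt2 over Akt1 was 1.35 ± 0.18, 1.02 ± 0.70 and 1.08 ± 0.30 (SD), and no pair of depots passed (exact two-sided permutation tests, n = 6 and 6, adjusted p = 0.115 for iWAT and BAT, 0.983 for eWAT and BAT, and 0.472 for iWAT and eWAT). Without the iWAT sample of mouse 14 the ratio was 0.34 higher in iWAT than in BAT (exact permutation, adjusted p = 0.0406).

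Tbc1d4 (mm9 chromosome 14, 101841577 to 102008408, minus strand) encodes the AKT substrate AS160, a GTPase-activating protein that holds glucose transporter vesicles inside the cell. Over the 6 samples of a depot its RPKM ran from 3.02 to 4.52 in iWAT (median 4.22), from 4.09 to 9.26 in eWAT (median 8.48) and from 2.79 to 4.84 in BAT (median 3.27). The iWAT and BAT values overlapped, and 5 of 6 eWAT samples were above both. In the test of counts the log2 fold change was -0.07 for iWAT over BAT (SE 0.15, edgeR adjusted p = 0.675), -0.26 for eWAT over BAT (SE 0.18, edgeR adjusted p = 0.193) and 0.14 for iWAT over eWAT (SE 0.18, edgeR adjusted p = 0.606). The eWAT row of 6641 bases is less than the merged row of 13929 bases, and with an offset for row length eWAT was higher than BAT by 0.41 (edgeR adjusted p = 0.0448) and iWAT over eWAT was -0.51 (edgeR adjusted p = 0.0221). As the TMM factors were also taken again in that fit, these values do not give the effect of row length alone.

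Foxo1 (mm9 chromosome 3, 52072259 to 52157143, plus strand) encodes a transcription factor that insulin turns off through AKT. The iWAT samples lay between 10.9 and 14.01 RPKM with a median of 12.6, the eWAT samples between 10.8 and 21.4 with a median of 19.0, and the BAT samples between 5.87 and 18.3 with a median of 6.03. The BAT sample of mouse 11 was at 18.3 and the other 5 BAT samples at 6.43 or less, below all samples of the other depots. The log2 fold change was 0.40 for iWAT over BAT (SE 0.24, edgeR adjusted p = 0.153), 0.18 for eWAT over BAT (SE 0.23, edgeR adjusted p = 0.481) and 0.17 for iWAT over eWAT (SE 0.23, edgeR adjusted p = 0.634). Without the BAT sample of mouse 11 the first was 0.73 (edgeR adjusted p = 3.63e-06) and the second 0.52 (edgeR adjusted p = 0.00192), and both passed. With limma on log2(RPKM + 0.1) they were 0.77 (limma adjusted p = 0.00965) and 1.23 (limma adjusted p = 7.18e-05) with all samples. The same BAT sample was the lowest in BAT for Irs1, Pik3r1 and Tbc1d4 and the highest for Ptpn1.

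Ptpn1 (mm9 chromosome 2, 167757557 to 167804885, plus strand) encodes PTP1B, the phosphatase that removes phosphate from the insulin receptor. Values of 4.51 to 8.20 RPKM (median 5.82) were measured for iWAT, 6.75 to 15.9 (median 7.79) for eWAT and 3.11 to 4.05 (median 3.34) for BAT. All white samples were above all BAT samples, and the highest value belonged to the eWAT sample of mouse 15. Counts in iWAT were 1.45-fold those in BAT (0.53 on the log2 scale, SE 0.12, edgeR adjusted p = 0.00111), and counts in eWAT were 1.62-fold those in BAT (0.70 on the log2 scale, SE 0.19, edgeR adjusted p = 0.00327). Without the eWAT sample of mouse 15 the latter was 0.44 (edgeR adjusted p = 0.00333), and without the BAT sample of mouse 12 as well it was 0.40 (edgeR adjusted p = 0.0115). For iWAT over eWAT it was -0.21 (SE 0.19, edgeR adjusted p = 0.450), which turned to 0.050 without the eWAT sample of mouse 15 and was -0.53 with limma on log2(RPKM + 0.1), where it passed (limma adjusted p = 0.0166). The log2 ratio of Ptpn1 over Insr was -1.37 ± 0.35 in iWAT, -0.61 ± 0.88 in eWAT against -1.38 ± 0.24 in BAT (SD). It was 0.77 higher in eWAT than in BAT (exact two-sided permutation test, n = 6 and 6, p = 0.0195, adjusted p = 0.0487). That call was lost on leaving out any eWAT sample, or the BAT sample of mouse 6, 8, 12 or 13, with differences of 0.43 to 0.90 over all 12 single omissions and 0.43 without the eWAT sample of mouse 15. For iWAT and eWAT the difference was -0.77 (exact permutation p = 0.0368, adjusted p = 0.0788), and -0.87 without the iWAT sample of mouse 14, which passed (exact permutation, adjusted p = 0.0325). Between iWAT and BAT the ratios differed by 0.00 (exact permutation p = 0.983, adjusted p = 0.983).

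**Figure D3:**
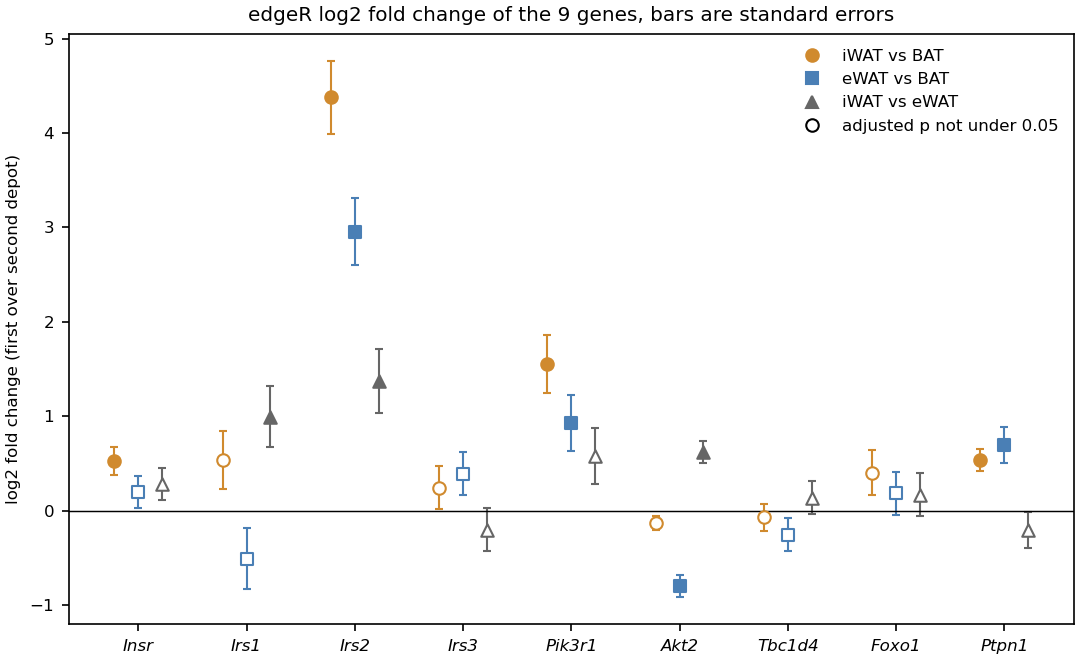
Log2 fold change of read counts (vertical axis) of the 9 core genes (horizontal axis) for iWAT over BAT (circles), eWAT over BAT (squares) and iWAT over eWAT (triangles), with edgeR standard errors as bars and filled symbols for an adjusted p under 0.05. Irs2 has the highest values, 4.38, 2.96 and 1.37. The filled Akt2 symbols at -0.80 and 0.62 lost the call with an offset for row length, in a fit that also took the TMM factors again.

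RPKM is per length of row, and in iWAT and BAT that is the length of merged exons. Merged and eWAT rows had 7428 and 3122 bases for Akt2, 13929 and 6641 for Tbc1d4, and 4043 and 4015 for Irs2. The order of genes by RPKM thus depends on annotation as well as on reads. In the order of mean RPKM, iWAT ran from Irs2 over Pik3r1, Akt2, Insr, Irs3, Foxo1, Irs1 and Ptpn1 to Tbc1d4. The ranges of neighbours in this order overlapped except between Pik3r1 and Akt2, Akt2 and Insr, and Foxo1 and Irs1. In eWAT the order was Pik3r1, Akt2, Irs2, Foxo1, Irs3, Insr, Ptpn1, Tbc1d4 and Irs1, and the ranges of all neighbours overlapped. In BAT, Akt2 was first and its range lay above that of Pik3r1, and all later neighbours, Irs3, Insr, Foxo1, Irs1, Tbc1d4, Ptpn1 and Irs2, overlapped. Irs2 was thus first in iWAT and last in BAT.

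Several core genes were low or high together in a sample. The iWAT sample of mouse 14 was the lowest in iWAT for 6 of the 9 genes (Insr, Irs1, Irs2, Irs3, Pik3r1 and Tbc1d4), and it had the highest endothelial marker sum in iWAT. The eWAT sample of mouse 15 was the lowest in eWAT for 8 of 9 genes, all but Ptpn1, and in that sample the macrophage sum was highest and the sum of 4 adipocyte genes, at 2639, was lowest in eWAT (median 4709). For the same marker genes, the extreme sums of the other white depot, which differ in size from these, were as follows. The eWAT sample of mouse 8 had the highest endothelial sum in eWAT, at 211, and was lowest for 0 core genes. The iWAT sample of mouse 7 had the highest macrophage sum in iWAT, 155, and the lowest adipocyte sum, 3091, and was lowest for Akt2 only. The part of other cells in the low values of mice 14 and 15 was not tested. In BAT the sample of mouse 7 was highest for all 3 substrate genes and lowest for Insr. The muscle-rich BAT sample of mouse 12 was highest in BAT for Insr and Tbc1d4, and without it the BAT means of these genes were 8.70 ± 0.73 and 3.24 ± 0.43 RPKM (SD, n = 5), against 8.94 ± 0.89 and 3.51 ± 0.76 (SD, n = 6) with it.

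The transcript rows of eWAT show how reads spread along the core genes. In Insr, Irs1, Pik3r1 and Tbc1d4 rows at the 3′ end had higher RPKM than rows at the 5′ end. Not all rows of Tbc1d4 followed this. Rows of 3319 and 3486 bases, nearer its 3′ end than its 5′ end, were at 0.50 ± 0.18 and 0.57 ± 0.15 RPKM (SD, n = 6 each). For Akt2 and Foxo1 the row of the last annotated bases was low, but some other rows towards the 3′ end were above 5′ rows. Rows chosen after their values were seen were, in Akt2, a 3′ row of 1023 bases at 47.7 ± 10.7 RPKM and a 5′ row of 445 bases at 21.7 ± 4.77. In Foxo1 a 3′ row of 3116 bases was at 20.1 ± 4.50 and a 5′ row of 2531 bases at 14.4 ± 2.84 (SD, n = 6 each). Rows of a gene share reads, so no test was made. For Insr, the row with the most reads (9355 bases) was at 13.4 ± 3.22 RPKM and that with the second most (3511 bases, at the 3′ end) at 16.2 ± 3.95 (SD, n = 6 each). Among rows chosen after their values were seen, a 3′ row of Insr of 1368 bases was at 20.7 ± 4.85 and its 5′ row of 1675 bases at 9.72 ± 2.38. In Irs1 the row with the most reads was at 4.28 ± 1.60, that with the second most, a 3′ row of 4261 bases, at 5.69 ± 2.31, and a 5′ row of 5511 bases at 2.48 ± 0.82.

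Both starts of Pik3r1 had rows among those with the most reads. The long transcript had 6915 bases and 35.7 ± 10.996 RPKM, and the shorter transcript from the internal start had 5843 bases and 37.0 ± 12.2 RPKM (SD, n = 6 each). They share most of their exons and reads. A 5′ row of 826 bases that lies before the internal start was at 22.02 ± 5.24 RPKM and another of 2706 bases at 8.18 ± 1.89, and a row of 2731 bases at the 3′ end, which both forms share, at 38.8 ± 11.97. Insr and Irs1 showed the same drop from 3′ to 5′, so use of the upstream start and this drop cannot be told apart. In Tbc1d4 the rows with the most and second most reads had the same reads in each sample and were at 7.76 ± 1.91 and 7.74 ± 1.90 RPKM, while a 3′ row of 3703 bases was at 9.77 ± 2.42 and a 5′ row of 3249 bases at 4.92 ± 1.29. For Akt2, the rows with the most and second most reads (3122 and 4544 bases) were at 33.6 ± 7.51 and 23.0 ± 5.07 RPKM, and its last 1978 annotated bases were at 10.7 ± 2.14. For Foxo1 the top rows (5552 and 3906 bases) were at 17.7 ± 3.74 and 21.2 ± 4.65. The last 3860 bases annotated to Foxo1 were at 2.67 ± 0.59 RPKM. The top rows of Ptpn1 (4292 and 4213 bases), which cover nearly the same span, were at 8.97 ± 3.50 and 9.13 ± 3.56, and its other rows ranged from 1.80 to 9.52 RPKM. The top rows of Irs2 (4015 and 3817 bases) were at 29.2 ± 9.06 and 29.9 ± 9.40, and the top rows of Irs3 were identical in position, at 15.9 ± 4.20.

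**Figure D4:**
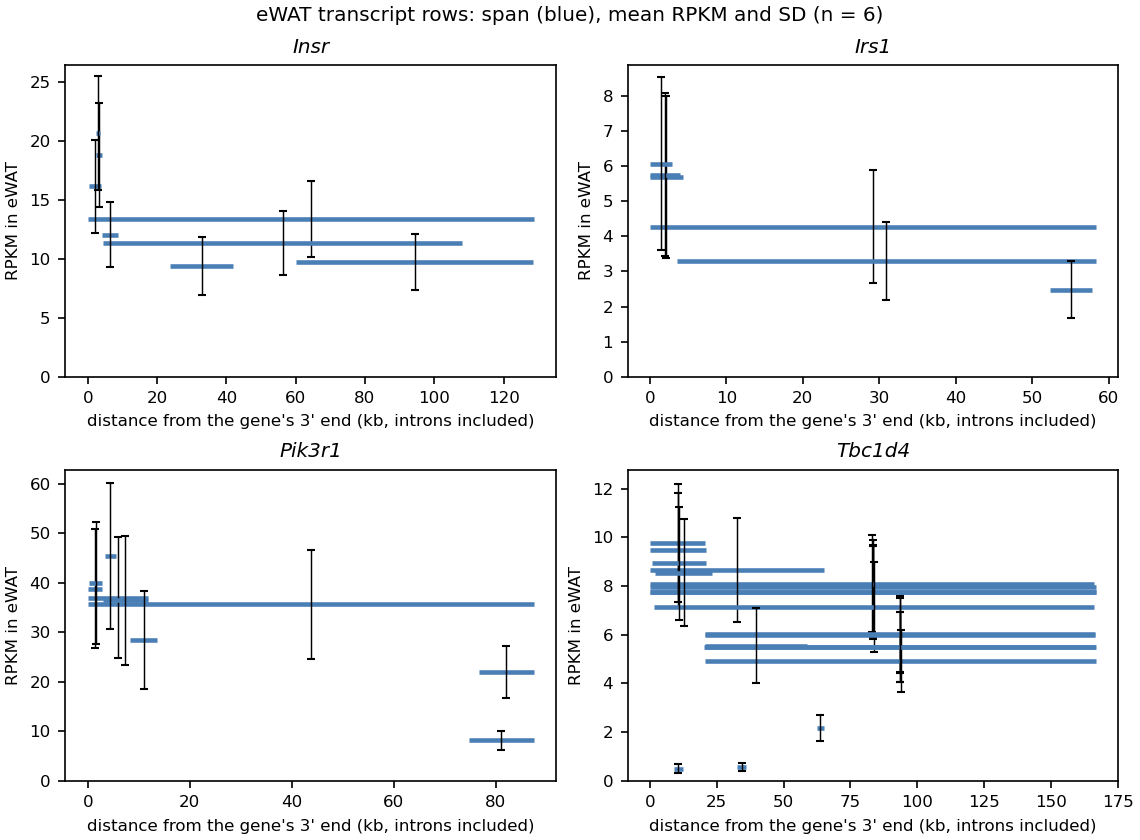
Mean RPKM (vertical axis, SD as bars, n = 6) of each eWAT transcript row of 4 core genes against its span, as distance from the 3′ end of the gene in kb with introns included (horizontal axis, blue lines). Short rows near the 3′ end reach 20.7 in Insr and 6.07 in Irs1, above the 5′ rows at 9.72 and 2.48.

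Outside the core genes, 70 other genes of the pathway were listed, and 65 of them passed the filter on low counts. Those left out were Ins1, Ins2, Insrr, Irs4 and Foxo6. Between iWAT and BAT 51 of the 65 passed, 33 higher and 18 lower in iWAT, with a median log2 fold change of 0.26. Between eWAT and BAT 48 passed, 32 higher and 16 lower in eWAT (median 0.26), and between iWAT and eWAT 21 passed, 16 higher and 5 lower in iWAT (median 0.11). As shares of the genes tested these are 78.5%, 73.8% and 32.3%, near the 67.6%, 70.3% and 25.6% of all rows. Of all rows, 34.0% passed as higher and 33.6% as lower in iWAT than in BAT. For eWAT and BAT these shares were 35.6% and 34.7%. The counts by group below stand beside these shares, and no group was tested as a set. For 5 of the 16 genes lower in eWAT than in BAT (Foxo4, Grb14, Mapkap1, Stx4a and Vamp2) the mean RPKM was higher in eWAT, and for 8 of the 21 genes that passed between iWAT and eWAT the mean RPKM also differed in the other direction, so directions counted below for eWAT are those of the read counts.

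Other inhibitors of the signal held the largest differences. Socs3 and Socs1, cytokine-induced proteins that can mark substrates for degradation, were among them. Socs3 was at 233 ± 93.8, 112 ± 26.7 and 0.558 ± 0.231 RPKM in iWAT, eWAT and BAT, respectively (SD, n = 6 each), with a log2 fold change of 8.45 for iWAT over BAT (SE 0.38, edgeR adjusted p = 2.68e-10) and 7.16 for eWAT over BAT (SE 0.35, edgeR adjusted p = 2.92e-12). Socs1 was at 5.46 ± 2.99, 1.90 ± 0.51 and 0.0886 ± 0.0174 RPKM, with a log2 fold change of 5.67 for iWAT over BAT (SE 0.42, edgeR adjusted p = 3.16e-08) and 1.61 for iWAT over eWAT (SE 0.30, edgeR adjusted p = 0.000841). Trib2, a pseudokinase of the Tribbles family, was lower in iWAT than in BAT by 1.65 on the log2 scale (edgeR adjusted p = 0.000592), from 1.04 ± 0.67 against 2.76 ± 0.89 RPKM. Of the 6 genes of this group, 3 were higher and 2 lower in iWAT than in BAT, and 4 were higher and 1 lower in eWAT than in BAT.

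Of 11 adaptor genes tested, 8 were higher and 2 lower in iWAT than in BAT, and 7 were higher and 3 lower in eWAT than in BAT, the third of these being Grb14. Sh2b2 and Sh2b1, which encode adaptors that bind the activated receptor, were among the lower ones. Sh2b2 was at 7.30 ± 1.80, 10.5 ± 1.10 and 19.6 ± 3.45 RPKM in these depots, with a log2 fold change of -1.68 for iWAT over BAT (SE 0.16, edgeR adjusted p = 4.32e-07) and -2.15 for eWAT over BAT (SE 0.15, edgeR adjusted p = 2.55e-10). Sh2b1 had a log2 fold change of -1.48 for eWAT over BAT (edgeR adjusted p = 4.76e-12), at 6.86 ± 0.81 against 13.9 ± 1.57 RPKM. Grb14, an adaptor that inhibits the receptor kinase, had 1.84 higher log2 counts in iWAT than in eWAT (edgeR adjusted p = 1.44e-08). Its counts in eWAT were below those in BAT (log2 fold change -0.98), but its mean RPKM of 12.2 in eWAT was above the 5.26 in BAT, and with limma on log2(RPKM + 0.1) it was higher in eWAT (limma adjusted p = 9.23e-08). Between iWAT and eWAT its RPKM was nearly equal, at 11.9 ± 2.28 and 12.2 ± 1.59. With limma on log2(RPKM + 0.1) the log2 fold change of iWAT over eWAT was -0.050 (limma adjusted p = 0.779). With an offset for row length it was 0.39 (edgeR adjusted p = 0.0152). That offset fit also took the TMM factors again, so it does not give the effect of row length alone.

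Among the other groups, all 5 further phosphoinositide 3-kinase genes were higher in eWAT than in BAT and 4 of 5 in iWAT, beside 35.6% and 34.0% of all rows. Of these, Pik3cd was not called for eWAT over BAT without the eWAT sample of mouse 15 (0.53, edgeR adjusted p = 0.130, in place of 1.52) or with the replicate block (0.84, edgeR adjusted p = 0.249). Pik3cd, the catalytic subunit typical of leukocytes, was lower in iWAT than in eWAT by 2.19 on the log2 scale (edgeR adjusted p = 0.00540), at 0.240 ± 0.119 against 1.58 ± 1.89 RPKM, and its highest value in eWAT, 5.39, was that of the sample of mouse 15, which had the high macrophage markers given above and whose part in the result beyond its omission was not tested. Without that sample the eWAT mean was 0.813 ± 0.331 RPKM (SD, n = 5) and the log2 fold change of iWAT over eWAT was -1.20 (edgeR adjusted p = 0.00987), and with the replicate block it was -1.60 and did not pass (edgeR adjusted p = 0.0853). Of the 8 other phosphatase genes, 5 were higher and 2 lower in iWAT than in BAT, and 4 were higher and 2 lower in eWAT. Ptprf, the receptor phosphatase LAR, was at 3.39 ± 0.65, 3.72 ± 0.21 and 0.106 ± 0.040 RPKM in iWAT, eWAT and BAT (SD, n = 6 each), with a log2 fold change of 4.55 for eWAT over BAT (SE 0.19, edgeR adjusted p = 5.12e-13). In the TOR branch 1 of 11 genes was higher and 4 were lower in iWAT than in BAT, and 2 were higher and 5 lower in eWAT. In the group of kinases downstream, 4 were higher and 4 lower of 8 between iWAT and BAT, and 3 were higher and 1 lower between eWAT and BAT. For glucose transporter traffic, 6 of 12 genes were higher in each white depot than in BAT, and 2 were lower in iWAT and 3 in eWAT, the latter including Stx4a and Vamp2, which had higher mean RPKM in eWAT than in BAT. Slc2a4, which encodes the insulin-regulated transporter GLUT4, was among the lower ones, with a log2 fold change of -0.67 for iWAT over BAT (SE 0.11, edgeR adjusted p = 0.000134) and -1.34 for eWAT over BAT (SE 0.17, edgeR adjusted p = 1.32e-06). Its mean RPKM was 47.9 ± 3.27, 38.2 ± 10.4 and 63.2 ± 9.03 in iWAT, eWAT and BAT. Pde3b, the phosphodiesterase by which insulin restrains lipolysis, was higher in iWAT than in BAT by 0.85 (edgeR adjusted p = 3.15e-05). For eWAT over BAT its log2 fold change was 0.41, which did not pass (edgeR adjusted p = 0.0608). Of the FoxO genes, Foxo3 was higher in iWAT and eWAT than in BAT by 1.08 and 1.22 (edgeR adjusted p = 6.99e-07 and 4.80e-08), and Foxo4 had log2 fold changes of -0.63 and -0.88 (edgeR adjusted p = 7.11e-06 and 3.70e-07), although its RPKM in eWAT (mean 9.74) was not below that in BAT (9.21). Slc2a4, Stx4a, Vamp2, Pde3b, Foxo3 and Foxo4 were singled out after their values were seen.

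**Figure D5:**
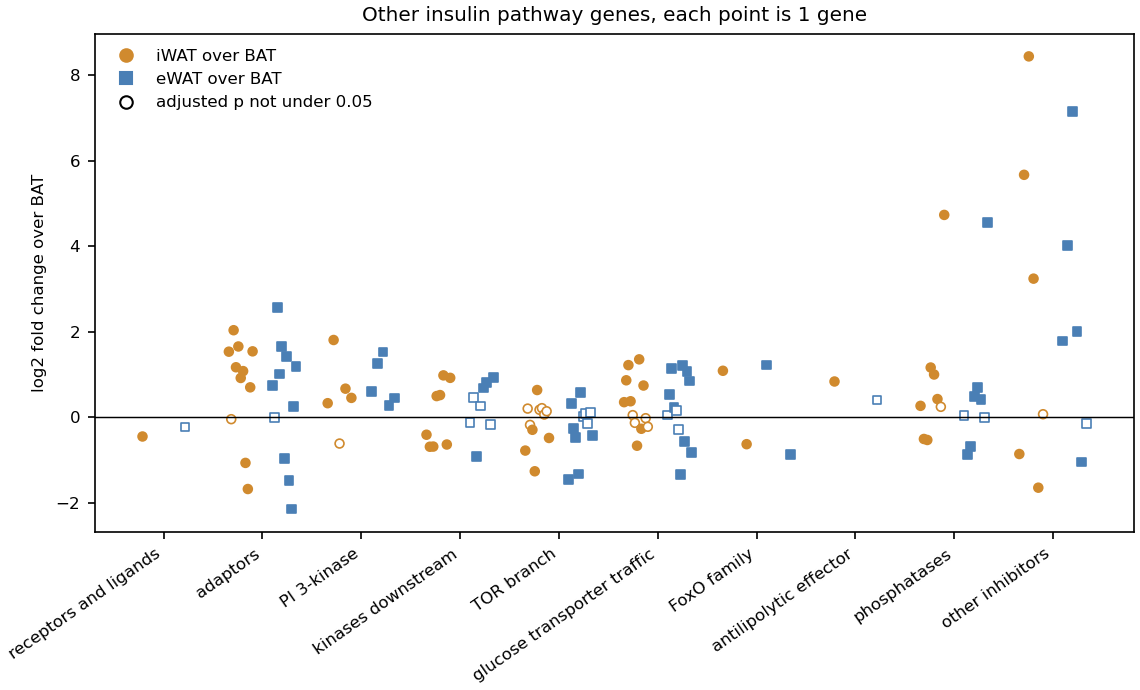
Log2 fold change over BAT (vertical axis) of 65 further insulin pathway genes (points), by group (horizontal axis), for iWAT (circles) and eWAT (squares), filled where the adjusted p was under 0.05. The points at the top right are Socs3, at 8.45 and 7.16.

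The genes most like each core gene across the 12 iWAT and BAT samples, by Pearson correlation of log2(RPKM + 0.1) among 14107 genes that averaged 1 RPKM or more in iWAT or BAT, are given as a description. These samples come from 2 depots. For Irs2 they were E230016M11Rik (r = 0.99) and Cnr1 (r = 0.99), the cannabinoid receptor gene, which was at 4.17 ± 1.55 RPKM in iWAT and 0.0835 ± 0.0468 in BAT. For Insr they were Etnk1 (r = 0.99) and Pcnx (r = 0.98), and for Pik3r1 they were 1700126G02Rik and AK052921 (r = 0.97 each). Irs1 was most like the row on the opposite strand of its own last exon (r = 0.95), with which it can share reads, and then Zfhx4 (r = 0.92). The most like Irs3 were Smarcd2 (r = 0.91) and Med31 (r = 0.89), and the most like Akt2 were Kpna2 (r = 0.94) and Commd1 (r = 0.93). Tbc1d4 had the lowest values, with Gatsl2 (r = 0.87) and Fyco1 (r = 0.85). Foxo1 was most like ENSMUSG00000083449 and Dennd5b (r = 0.96 and 0.95), and Ptpn1 was most like Bcor and Rnf149 (r = 0.98 each). Among the core genes themselves, Irs2 and Ptpn1 were most alike over these samples (r = 0.91), followed by Insr and Pik3r1 (r = 0.89), and Tbc1d4 and Foxo1 least (r = 0.04).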

How the data were processed

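RNA-seq of 6 iWAT, 6 eWAT and 6 BAT samples was analysed. The submitters' processing notes name cutadapt (version 1.16) and HISAT2 (version 2.1.0), and the study's methods name the Genomatix Genome Analyzer and mm9; the way reads were counted is not given in the sources used here. The authors deposited a read count and an RPKM for each row, the RPKM being the count divided by row length and by a single total of reads per sample. Rows are 53445 merged genes in iWAT and BAT and 189660 transcripts in eWAT, of which 27301 rows are identical.

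The quasi-likelihood test of edgeR (version 4.0.16; R version 4.3.3) was applied to counts by glmQLFit and glmQLFTest, with TMM normalisation, the RPKM totals as library sizes and no block. A sample's depth was 22929576 to 34512470 reads by these totals. Rows needed at least 10 reads in at least 6 samples. iWAT and BAT were compared over all merged rows of their 12 samples, and comparisons with eWAT used all 18 samples and 1 row per symbol (merged row, or most-read transcript). P-values were adjusted by Benjamini-Hochberg over all rows, with a threshold of 0.05. Standard errors were derived from the F statistic. The code was tested on simulated counts. The 5 ratios of RPKM were compared by exact two-sided permutation tests in scipy (version 1.17.1; Python version 3.11.15), adjusted over 15 comparisons. Nothing states that samples came from separate experiments, so p-values measure the spread between these samples.

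The members and lists were chosen with earlier results of these data known. All core genes were named, as were the 2 pathway genes that rose most and the 2 that fell most per comparison (adjusted p under 0.05, mean RPKM of at least 1), pathway genes used in a ratio, the 2 genes most like each core gene and the 2 most-read eWAT rows. A gene that this rule names is not reported here. Alternatives were RLE normalisation, other filters, other rows, limma (version 3.58.1) with log2(RPKM + 0.1) or log2(RPKM + 1), DESeq2 (version 1.42.0), a row length offset, a replicate block and single omissions; leaving out the BAT sample of mouse 12 and the eWAT sample of mouse 15 together was chosen after seeing the data. The title numbers, read as mouse numbers, are shared by 4 samples of iWAT and BAT, 4 of eWAT and BAT and 5 of iWAT and eWAT. Deviations from the depot means of samples with the same number had mean correlations of 0.04, -0.03 and -0.09. Reads carry no molecular identifiers.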

Additional observations from a re-analysis of the deposited data

Results flagged for a closer look

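Each measure of a core gene in a depot was examined for a single sample far from the other 5 by Dixon's ratio of gap to range at its 95% critical value. Of 42 measures 7 were found, where chance gives about 2.1. Insr in iWAT was 9.34 RPKM in the sample of mouse 14 and 15.4 to 17.8 in the others. Irs3 in BAT was 19.4 RPKM in the sample of mouse 7 and 6.23 to 9.10 in the others. Foxo1 in BAT was 18.3 RPKM in the sample of mouse 11 and 5.87 to 6.43 in the others, the widest gap of the 7. The 4 others all belonged to the eWAT sample of mouse 15. In that sample Tbc1d4 was 4.09 RPKM, against 7.36 to 9.26 in the others, and Ptpn1 was 15.9 RPKM, against 6.75 to 8.82. The log2 ratio of Akt2 over Akt1 was -0.38 in it and 1.06 to 1.45 in the others, and that of Ptpn1 over Insr was 1.08, against -1.24 to -0.42.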

How the results depend on the processing

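Over all alternatives run, Irs2 in all 3 comparisons and Pik3r1 and Ptpn1 over BAT kept direction and call, as did Insr for iWAT over BAT. The log2 fold changes over these alternatives were 4.19 to 4.63, 2.57 to 3.31 and 1.18 to 1.78 for Irs2. The number of core genes past the threshold was 7, 8 and 5 (iWAT and BAT, eWAT and BAT, iWAT and eWAT) with limma on log2(RPKM + 0.1) or log2(RPKM + 1), in place of 4, 4 and 3, while 70.7%, 80.4% and 52.5% of all rows passed at the smaller pseudocount, in place of 67.6%, 70.3% and 25.6%. With rows identical in both kinds of file only, it was 0 and 0 of 1 core gene for the comparisons with eWAT, since only Irs3 is left, and 4 and 1 of 6 listed pathway genes. For iWAT and eWAT the listed pathway genes past the threshold were 37 with limma at either pseudocount and 36 with a row length offset, in place of 21. The replicate block by title number gave 4, 4 and 3 core genes and 48, 43 and 17 listed genes, and changed no call of a core gene; with the block Tbc1d4 turned from -0.07 to 0.036 for iWAT over BAT.

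Directions turned as follows, with values at pseudocounts of 0.1 and 1 for limma. For iWAT over BAT, limma gave 0.13 and 0.13 for Akt2 and 0.21 and 0.17 for Tbc1d4. For eWAT over BAT, it gave 0.061 and 0.045 for Irs1, 0.75 and 0.72 for Akt2 and 1.10 and 0.94 for Tbc1d4, and the row length offset gave -0.15 for Insr, -0.0012 for Irs3, 0.052 for Akt2 and 0.41 for Tbc1d4. For iWAT over eWAT, limma gave -0.61 and -0.59 for Akt2, -0.89 and -0.77 for Tbc1d4 and -0.46 and -0.43 for Foxo1, and the offset gave 0.21 for Irs3, -0.21 for Akt2, -0.51 for Tbc1d4 and -0.055 for Foxo1. The offset and limma on RPKM both use row length. In the offset fit the TMM factors were also taken again on length-scaled counts, so that fit differs in normalisation too. Irs3, whose row has 2337 bases in both kinds of file, moved from 0.39 to -0.0012 for eWAT over BAT. For iWAT over eWAT it moved from -0.20 to 0.21. No length offset applied to Irs3 itself, since its rows are equal in length. The parts of length and normalisation in the moves of the other genes were not tested. Without the BAT sample of mouse 12 and the eWAT sample of mouse 15 together, Tbc1d4 was 0.017 for iWAT over BAT and Ptpn1 0.051 for iWAT over eWAT.

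Log2 ratios changed as follows. With a pseudocount of 0.1 RPKM, Ptpn1 over Insr was -0.0058 for iWAT over BAT and 0.75 for eWAT over BAT, which no longer passed. With read counts, Insr over Igf1r was 0.42 for eWAT over BAT and 0.55 for iWAT over eWAT (call lost), Akt2 over Akt1 was -0.68 for eWAT over BAT and 0.95 for iWAT over eWAT (both passed), and Ptpn1 over Insr was 0.45 for eWAT over BAT (call lost). With the eWAT transcript closest in length to the merged row, Akt2 over Akt1 was 0.87 for iWAT over eWAT and passed. Single omissions gave 4 to 6, 4 to 6 and 2 to 3 core genes. They gave -0.18 to 0.017 for Tbc1d4 (iWAT over BAT) and -0.33 to 0.050 for Ptpn1 (iWAT over eWAT). For ratios they gave, for iWAT over BAT, 0.86 to 1.14 for Insr over Igf1r, 0.17 to 0.34 for Akt2 over Akt1 and -0.10 to 0.085 for Ptpn1 over Insr. For eWAT over BAT they gave -0.19 to 0.074 for Insr over Igf1r, -0.16 to 0.23 for Akt2 over Akt1, 0.43 to 0.90 for Ptpn1 over Insr and 0.61 to 0.96 for Irs3 over Irs1. For iWAT over eWAT they gave 0.89 to 1.21 for Insr over Igf1r and -0.89 to -0.43 for Ptpn1 over Insr. Core genes had at least 173 reads in every sample, so no core gene was near the limit of detection.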
